A study of Mus musculus with 9 samples.

Results

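The genes described here are 35 components of the unfolded protein response and of the protein folding machinery of the endoplasmic reticulum (ER), taken by gene symbol from a list. They cover ER chaperones and folding enzymes (14 genes), ER-associated degradation (7), stress sensors and transcription factors (6), targets of the integrated stress response (5) and entry of new proteins into the ER (3). All 35 were found among the 18875 genes of the table, and 34 passed the filter of at least 1 TPM in at least 3 libraries. Ern2 did not pass it. TPM is the share of a transcript in its library after division by its length, scaled to a fixed total. Whole lungs of wild-type (WT) BALB/c mice, an inbred strain, were profiled in 9 mRNA libraries, 3 in each of 3 groups. The long-term group received fine airborne particles (PM2.5) into the nose at 10 mg/kg, 6 times with 3 days between doses. Short-term mice were dosed 1 time at the same level, and the control group is labelled as a long-term exposure to PBS. No PBS group matched to the single dose was analysed here. The sources used here do not give age, sex or the time from the last dose to collection. Whether the 3 samples of each group are separate mice is not stated, so p-values measure the spread between these samples, which may be technical.

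Proteins that are secreted or placed in membranes fold in the ER with the help of chaperones such as BiP (Hspa5) and of protein disulfide isomerases. When unfolded protein accumulates, the sensors IRE1 (Ern1, and Ern2 in mucus-secreting epithelium), PERK (Eif2ak3) and ATF6 (Atf6) are activated. IRE1 splices the mRNA of Xbp1, ATF6 is cut to release a transcription factor, and PERK phosphorylates eIF2, which slows translation while Atf4 mRNA is translated more. XBP1 and ATF6 raise chaperones and degradation factors, and ATF4 raises Ddit3 (CHOP), Trib3, Chac1 and Asns. In the lung the secretory cells of the airways, type 2 alveolar cells and plasma cells carry a large load of secreted protein. Splicing of Xbp1, cleavage of ATF6 and translation of Atf4 cannot be read from gene-level TPM.

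The short-term libraries stood apart from the other 6. Their number of genes reaching 1 TPM was 12560, 13414 and 13175, while the others had 13534 to 13930, and long transcripts were lower in them. The median log2 difference from the PBS mean of the longest 20% of transcripts minus that of the shortest 20% was -1.43, -0.65 and -0.87 in short-term replicates 1, 2 and 3. It lay between -0.20 and 0.04 in the 6 libraries of the other groups. The lung markers Sftpc, Sftpb, Sftpa1, Scgb1a1, Ager, Hopx, Cldn5 and Cldn18 were all above 1 TPM, and Scgb1a1, the main secreted protein of club cells, alone took 10.7% to 18.1% of TPM in each library. Because TPM is a share, a shift of all genes moves each value. The median log2 fold change of all tested genes was -0.34 between short-term PM2.5 and PBS, 0.03 between long-term PM2.5 and PBS and 0.41 between the long-term and short-term groups, and median-ratio scaling moved these to -0.05, -0.01 and 0.08.

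The promoters of 9 of these genes carry a shared sequence, the ER stress element, through which ATF6 is known to act together with the factor NF-Y. It is written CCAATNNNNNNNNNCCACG and was searched on both strands in the 250 bases before the start of each gene, in RefSeq sequences on GRCm38.p6. Of the 35 genes, 29 had a promoter in the table, and 9 of the 29 held the element, against 23 of the 14874 genes of the expression table with a promoter (0.155%), the 9 included. Of all 32851 windows in the RefSeq table, 0.113% held it. The matches are shown because they are the sequence that 9 of these genes have in common. Sdf2l1, Pdia3, Pdia4, Dnajb9, Dnajb11, Sel1l, Edem1 and Derl2 were among those with a promoter in the table and no match. The matches are printed in the direction of the gene, with the fixed letters in capitals, so that an element on the opposite strand reads CGTGG first and ATTGG last.
Hspa5, chr2:34772025-34772043: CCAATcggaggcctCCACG
Hsp90b1, upstream copy, chr10:86705638-86705656: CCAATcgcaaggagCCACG
Hsp90b1, downstream copy, chr10:86705533-86705551: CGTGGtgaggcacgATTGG
Pdia6, chr12:17266491-17266509: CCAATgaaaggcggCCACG
Calr, chr8:84847075-84847093: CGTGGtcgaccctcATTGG
Canx, chr11:50325800-50325818: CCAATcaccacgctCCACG
Dnajc3, chr14:118937827-118937845: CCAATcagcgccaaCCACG
Creld2, chr15:88819520-88819538: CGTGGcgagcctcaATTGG
Syvn1, chr19:6046532-6046550: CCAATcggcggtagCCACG
Derl3, chr10:75893242-75893260: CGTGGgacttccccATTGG

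The genes of Hsp90b1, Calr and Canx lie on the minus strand and the others on the plus strand. Herpud1, on the plus strand, had no such match but held the shorter ER stress element II, in which ATTGG and CCACG stand 1 base apart, an element found in 0.0538% of the table's genes with a promoter. It reads ATTGGgCCACG at chr8:94386377-94386387, from 52 to 42 bases before the start. The composite element bound by ATF4, TGATGNAA, was found in Asns, Chac1 and Herpud1 (3 of 29 genes, against 2.84% of the table's genes), and the core of the unfolded protein response element, TGACGTG, in Hspa5 (1 of 29, against 2.36%). Promoters of Manf, Hyou1, Derl1, Ern2, Atf6 and Sec11c were not analysed here. The promoter of Pdia6, one of the folding enzymes that rose after short-term PM2.5, is given as an example, with the element in capitals.
Pdia6, GRCm38.p6, chr12:17266339-17266588, plus strand: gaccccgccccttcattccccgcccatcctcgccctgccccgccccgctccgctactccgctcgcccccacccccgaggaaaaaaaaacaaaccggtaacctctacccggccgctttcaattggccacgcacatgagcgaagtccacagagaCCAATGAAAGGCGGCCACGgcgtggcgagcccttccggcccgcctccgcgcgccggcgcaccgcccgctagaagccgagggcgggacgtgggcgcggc

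Short-term PM2.5 against PBS asked which of these genes differed after 1 dose. Of the genes of the ER lumen and of protein entry into the ER, 6 of 14 chaperones and folding enzymes and 2 of 3 entry genes rose, with Sdf2l1 and Manf the furthest. The sensor genes Ern1, Atf6 and Eif2ak3 were lower. In limma 9 of 34 tested genes passed an adjusted p of 0.05 as higher and 5 as lower, while 11.7% of all tested genes were higher and 40.3% lower. The median log2 fold change of the 34 genes was 0.08, beside -0.34 over all tested genes. The groups did not overlap in 11 of the 34 genes on the higher side and in 5 on the lower side, against 14.5% and 45.8% of all tested genes.

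Among the 14 chaperones and folding enzymes 6 rose, 1 fell and 7 did not pass. Over all tested genes 11.7% were higher and 40.3% lower. Sdf2l1 (chr16:17130138-17132383, GRCm38), a partner of ER chaperones that helps to keep folding proteins soluble, stood at 32.4, 30.1 and 34.97 TPM with PBS and at 108.8, 84.1 and 93.4 TPM after short-term PM2.5. The means were 32.5 ± 2.42 and 95.4 ± 12.5 TPM (± SD, n = 3), 2.94-fold, with a log2 fold change of 1.52 ± 0.13 (± SE, adjusted p = 5.64e-05). All 3 short-term libraries lay above all PBS libraries. Manf (chr9:106888753-106891938), a secreted ER stress protein that protects cells, stood at 179, 179 and 185 TPM with PBS and at 494, 408 and 376 TPM after short-term PM2.5. Its log2 fold change was 1.22 ± 0.11 (adjusted p = 6.89e-05), and its PBS values spread by 3.47 TPM (SD) around a mean of 181. Short-term replicate 1, the library with the steepest fall with transcript length, was the highest in both genes.

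Pdia6, a disulfide isomerase that also restrains the sensors IRE1 and PERK, stood at 123, 127 and 129 TPM with PBS and at 205, 285 and 227 TPM after short-term PM2.5 (0.90 ± 0.13, adjusted p = 0.000624). Calr, which encodes the calcium-binding chaperone calreticulin and had the highest mean level of the 35 genes, stood at 606, 606 and 625 TPM and at 1064, 1014 and 959 TPM (0.72 ± 0.09, adjusted p = 0.000381). Neither gene overlapped between the groups. Creld2, an ER stress protein with isomerase activity, went from 50.8 ± 5.52 to 80.8 ± 2.41 TPM (0.66 ± 0.11, adjusted p = 0.00124). Hyou1, a large Hsp70 relative that exchanges nucleotide on BiP, went from 43.0 ± 0.73 to 58.0 ± 6.84 TPM (0.41 ± 0.12, adjusted p = 0.0136). The calls of these 6 genes were kept under each of 18 other settings of the analysis. Dnajb9, a J-domain partner of BiP that hands misfolded protein to degradation and holds IRE1 inactive, was the member that fell. It stood at 52.7, 54.4 and 59.2 TPM with PBS and at 16.6, 52.6 and 31.6 TPM after short-term PM2.5 (-0.85 ± 0.31, adjusted p = 0.0390), with short-term replicate 2 just below the PBS libraries and replicates 1 and 3 well below them. The call of Dnajb9 was lost without any 1 library but short-term replicate 2 (adjusted p from 0.0523 to 0.101).

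**Figure D1:**
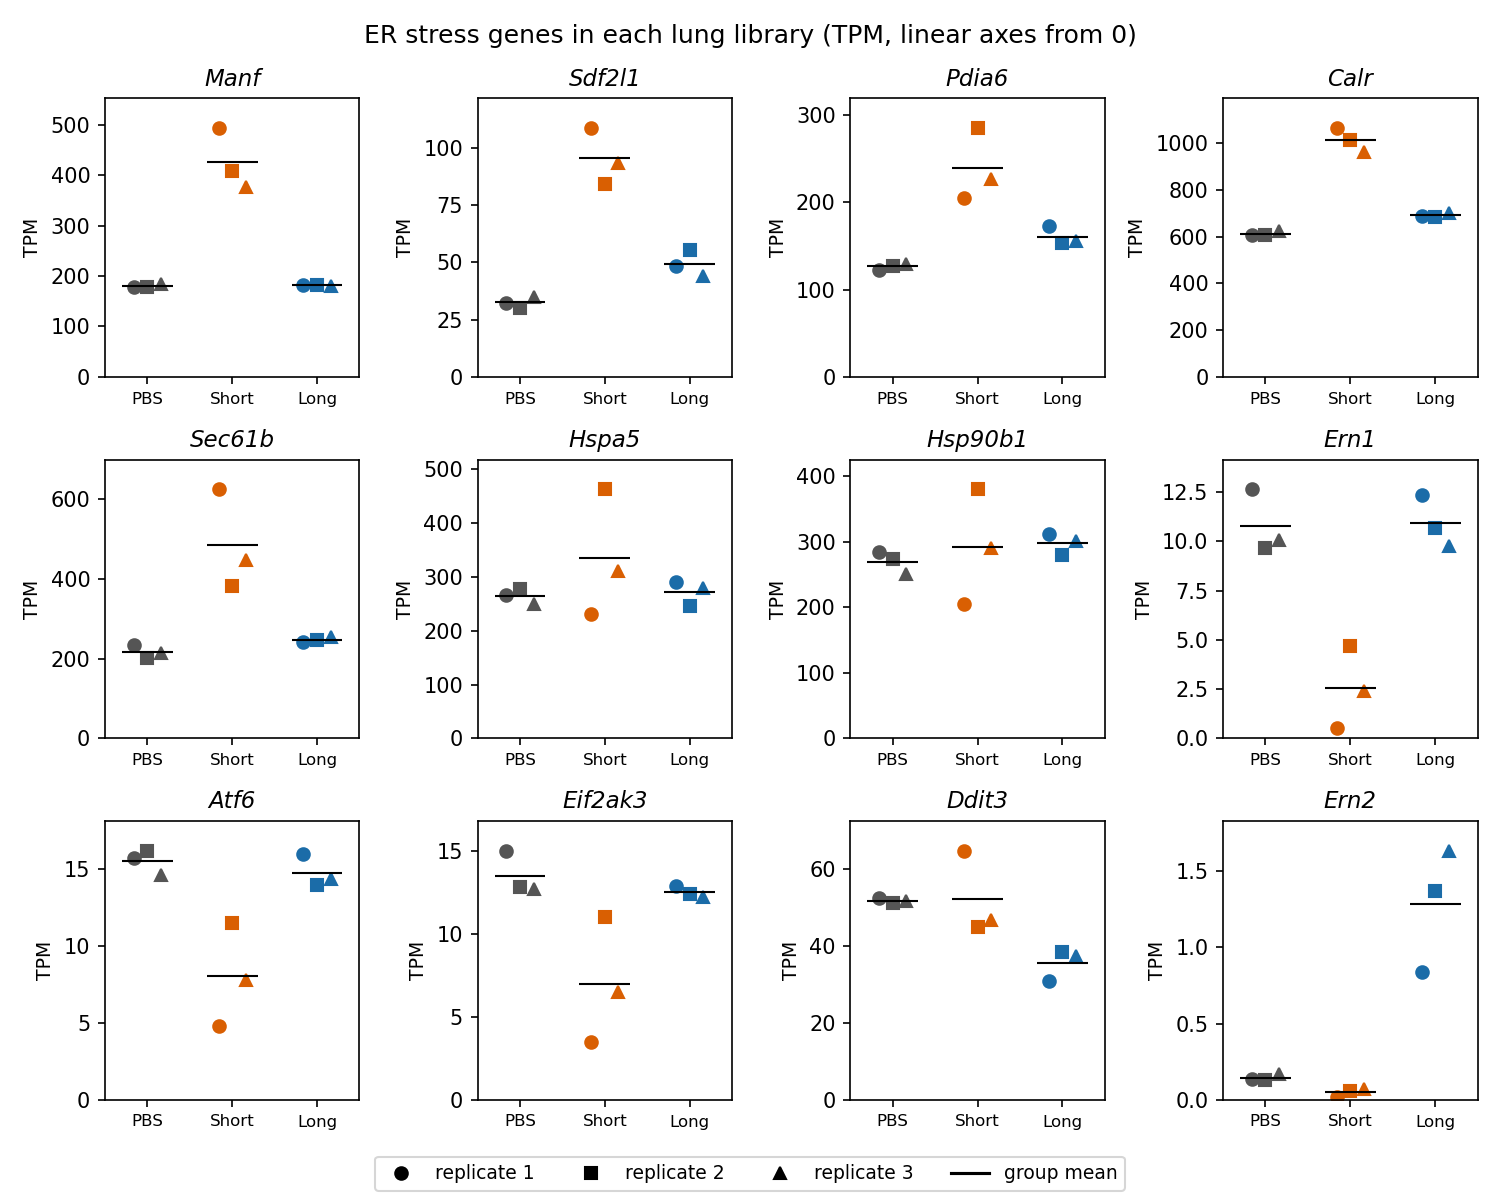
TPM of 12 of the genes in each library, on linear axes from 0, with 1 panel per gene, 1 symbol per replicate number and a line at the group mean (n = 3); Short and Long are short-term and long-term PM2.5. Manf, Sdf2l1, Pdia6, Calr and Sec61b were above all PBS values in the 3 short-term libraries, Ern1, Atf6 and Eif2ak3 were below them, and Hspa5 and Hsp90b1 overlapped.

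The other 7 chaperones and folding enzymes overlapped PBS on the deposited values. Hspa5, which encodes BiP, the chaperone most used as a marker of ER stress, stood at 267, 278 and 250.2 TPM with PBS and at 231, 463 and 312 TPM after short-term PM2.5. Short-term replicate 1 lay below all PBS libraries, and replicates 2 and 3 lay above them. The log2 fold change was 0.28 with a 95% confidence interval of -0.17 to 0.74 (adjusted p = 0.266), and without replicate 1 the adjusted p was 0.0142. Hsp90b1, the ER member of the Hsp90 family, stood at 284, 274 and 250.7 TPM with PBS and at 205, 379.9 and 291 TPM after short-term PM2.5 (0.07, interval -0.34 to 0.48). The lectin chaperone gene Canx (-0.12, interval -0.64 to 0.41) and the disulfide isomerase genes Pdia3 (0.25, -0.19 to 0.69) and Pdia4 (0.09, -0.31 to 0.50) did not pass either. Nor did Dnajb11 (0.35, -0.01 to 0.72) and Dnajc3 (-0.35, -0.84 to 0.15), which encode J-domain partners of BiP. In Hspa5, Hsp90b1, Pdia3, Pdia4, Canx, Dnajb11 and Dnajc3 short-term replicate 2 was the highest of the 3 short-term libraries, and in 6 of them, all but Dnajb11, replicate 1 lay below each PBS library. Without replicate 1 Pdia3 (adjusted p = 0.00953) and Dnajb11 (0.0111) passed as higher, and without replicate 2 Canx (0.0478) and Dnajc3 (0.0109) passed as lower. With median-ratio scaling Hspa5 (adjusted p = 0.00509), Hsp90b1 (0.0173), Pdia3 (0.00424), Pdia4 (0.0140) and Dnajb11 (0.00074) passed as higher. Canx and Dnajc3 did not pass with that scaling.

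Of the 7 degradation genes 1 rose, 1 fell and 5 did not pass, where 11.7% of all tested genes were higher and 40.3% lower. Derl3, a derlin that helps to move misfolded protein out of the ER and is known from secretory cells, stood at 4.40, 1.55 and 4.87 TPM with PBS and at 9.40, 9.12 and 8.82 TPM after short-term PM2.5. It rose by 1.23 ± 0.28 on the log2 scale (adjusted p = 0.00562), with PBS replicate 2 far below the other PBS libraries. Herpud1, a membrane scaffold of the degradation complex, stood at 145.9, 150.3 and 142 TPM and at 69.7, 123 and 99.9 TPM. It fell by 0.61 on the log2 scale (SE 0.17, adjusted p = 0.0141), and after median-ratio scaling its adjusted p was 0.0636. Sel1l, the partner of the ubiquitin ligase Syvn1, was at -0.56 (adjusted p = 0.0716), and without short-term replicate 2 at an adjusted p of 0.00444. Syvn1 (0.06), Edem1 (0.00), which takes glycoproteins to degradation, and the derlin genes Derl1 (0.06) and Derl2 (0.31) did not pass. The adjusted p of Derl2 was 0.105, and 0.0185 without short-term replicate 1. With median-ratio scaling Syvn1 (adjusted p = 0.0201), Edem1 (0.0363), Derl1 (0.00982) and Derl2 (0.00115) passed as higher.

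Of the sensor genes 3 were lower on the deposited values, where 40.3% of all tested genes were lower, and after correction for transcript length and GC content 2 of them were, Ern1 and Eif2ak3 (-0.43), with Atf6 at -0.07 (adjusted p = 0.502). Ern1 (chr11:106397620-106487796) stood at 12.6, 9.66 and 10.1 TPM with PBS and at 0.52, 4.71 and 2.43 TPM after short-term PM2.5, a mean of 2.55 ± 2.10 against 10.8 ± 1.61 TPM. Its log2 fold change of -1.92 ± 0.38 (adjusted p = 0.00278) was the lowest of the 34 genes. Atf6 stood at 15.7, 16.2 and 14.6 TPM and at 4.81, 11.5 and 7.81 TPM (-0.94 ± 0.24, adjusted p = 0.00867). Eif2ak3 stood at 15.0, 12.9 and 12.7 TPM and at 3.50, 11.02 and 6.49 TPM (-0.97 ± 0.29, adjusted p = 0.0174, and 0.0623 without PBS replicate 1). In each of the 3 genes short-term replicate 1 was the lowest and replicate 2 the highest of the short-term libraries, and none reached the PBS range. The transcription factor genes Xbp1 (0.31 ± 0.14, adjusted p = 0.0839) and Atf4 (0.19 ± 0.10, adjusted p = 0.136) did not pass. Xbp1 stood at 159, 159 and 163 TPM with PBS and at 159.6, 233 and 211 TPM after short-term PM2.5, and it passed as higher without short-term replicate 1 (adjusted p = 0.00228), with median-ratio scaling (0.000472) and with the length and GC trends subtracted (0.37, adjusted p = 0.00561). Atf4 passed as higher with median-ratio scaling (adjusted p = 0.00553) and not after the correction (0.10, adjusted p = 0.334).

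None of the 5 integrated stress response targets passed on the deposited values after short-term PM2.5. Over all tested genes 11.7% were higher and 40.3% lower. Ddit3, which encodes the stress transcription factor CHOP, stood at 52.5, 51.1 and 51.7 TPM with PBS and at 64.7, 45.1 and 46.8 TPM, a log2 fold change of -0.01 (95% interval -0.34 to 0.33). Trib3, a pseudokinase induced by ATF4 and CHOP, was at -0.03 (-0.56 to 0.50), and Chac1, an enzyme that degrades glutathione, was at 0.05 (-0.31 to 0.42). Ppp1r15a, which encodes the eIF2 phosphatase subunit GADD34, was at -0.09 (-0.44 to 0.25). Asns, asparagine synthetase, was at 0.33 (-0.11 to 0.77), with an adjusted p of 0.177, and 0.0222 without short-term replicate 1. Trib3, Chac1 and Asns had mean levels of 4.59 to 17.7 TPM, where the pseudocount of 1 shrinks fold changes.

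Of the 3 genes of ER entry 2 rose, where 11.7% of all tested genes were higher and 40.3% lower. Sec61b, a subunit of the protein-conducting channel, stood at 234, 201 and 213 TPM with PBS and at 624, 383 and 448 TPM after short-term PM2.5 (1.13 ± 0.16, adjusted p = 0.000603). Sec11c, a catalytic subunit of signal peptidase, stood at 44.5, 44.1 and 52.1 TPM and at 60.8, 96.5 and 71.2 TPM (0.67 ± 0.17, adjusted p = 0.00871). The groups did not overlap in either gene. Ssr1, a subunit of the translocon-associated protein complex, was at 0.00 (interval -0.48 to 0.49).

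**Figure D2:**
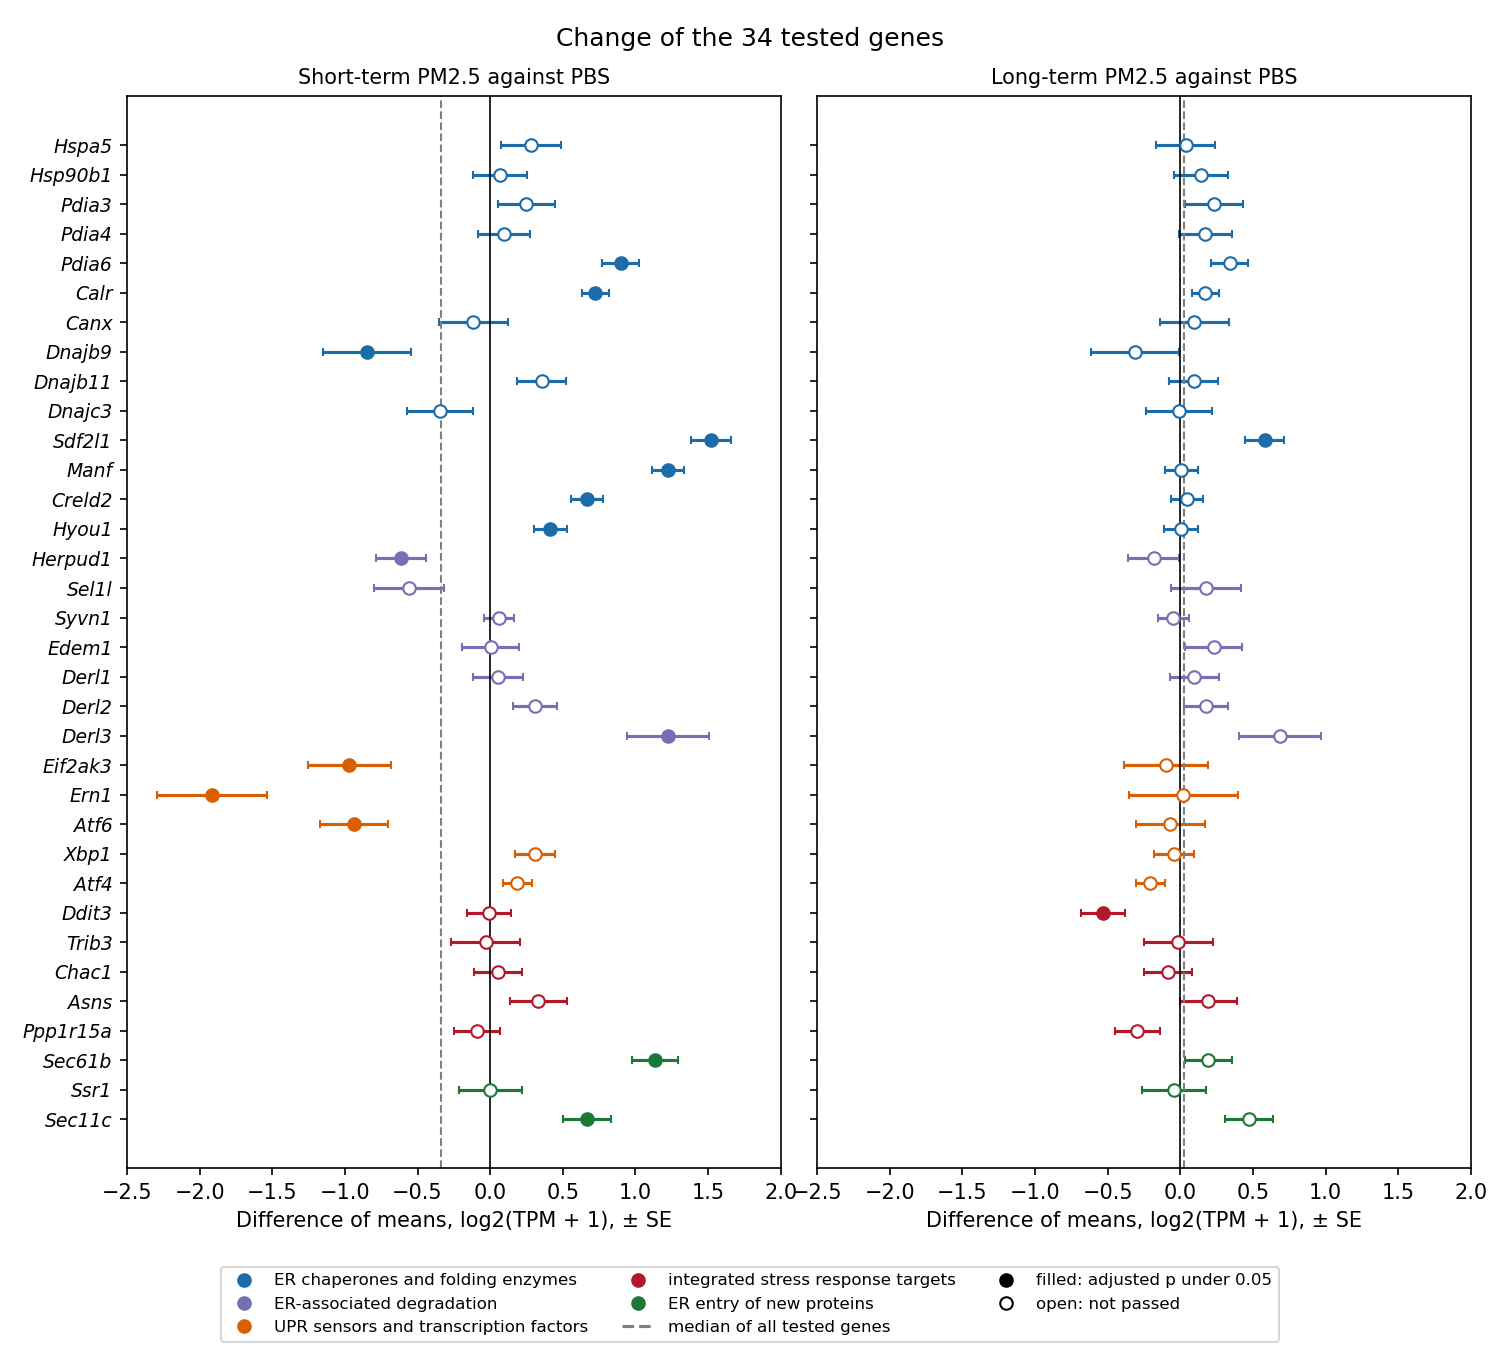
Log2 fold change on the log2(TPM + 1) scale with its standard error for the 34 tested genes, coloured by role, after short-term PM2.5 (left) and long-term PM2.5 (right) against the same 3 PBS libraries. Filled points passed the adjusted p threshold of 0.05, 9 as higher and 5 as lower on the left and 1 in each direction on the right, and the dashed line marks the median of all tested genes, -0.34 and 0.03.

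Transcript length moved with these short-term values. The 9 genes that rose had a longest coding transcript of 564 to 4489 bases, with a median of 1366, and the 5 that fell had 1952 to 7246 bases, with a median of 4513. The Spearman correlation of length with log2 fold change was -0.569 over the 34 genes and -0.558 over the 13770 tested genes with a known length. Points of the same libraries are not independent, and the value is a description. Once the dependence of each library on transcript length and GC content was subtracted, 24 of the 34 genes were higher and 5 lower, against 23.6% and 26.0% of all genes, and the correlation over the 34 genes was -0.057. The subtraction takes out the length trend over all genes by construction, along with any effect of exposure that follows length. All 9 genes that rose on the deposited values kept their call. By role, 13 of 14 chaperones and folding enzymes, 6 of 7 degradation genes, all 3 genes of ER entry, 1 of 5 sensors and transcription factors and 1 of 5 stress targets were higher.

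With this correction these 7 chaperones and folding enzymes were called as higher as well. Hspa5 was at 0.78 (adjusted p = 8.59e-05), Hsp90b1 at 0.43 (0.00146), Pdia3 at 0.60 (0.000285) and Dnajb11 at 0.58 (0.000674). Canx at 0.48, Dnajc3 at 0.37 and Sel1l at 0.25 passed in the direction opposite to their deposited value. Ssr1, the longest transcript of the list with 9333 bases, went from 0.00 to 0.94 (adjusted p = 1.77e-05), and Edem1, with 5817 bases, from 0.00 to 0.78 (0.000102). Sdf2l1 (1.22), Manf (1.37), Pdia6 (1.08), Hyou1 (0.90), Calr (0.88) and Creld2 (0.45) remained higher, and Sec61b, the shortest transcript, went from 1.13 to 0.69. Among the sensors Ern1 remained lower at -1.13 (adjusted p = 0.00275) and Eif2ak3 at -0.43 (0.0478), while Atf6 was at -0.07 (0.502). Herpud1 (-0.61) and Dnajb9 (-0.55) remained lower, and Ddit3 passed as lower (-0.39, adjusted p = 0.0143). With the correction and without short-term replicate 1, an alternative added after seeing the data, 24 genes were higher and 4 lower. Of all 13770 genes in that fit 3051 were higher and 3370 lower. The 4 lower genes of the list were Ern1, Herpud1, Dnajb9 and Ddit3.

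**Figure D3:**
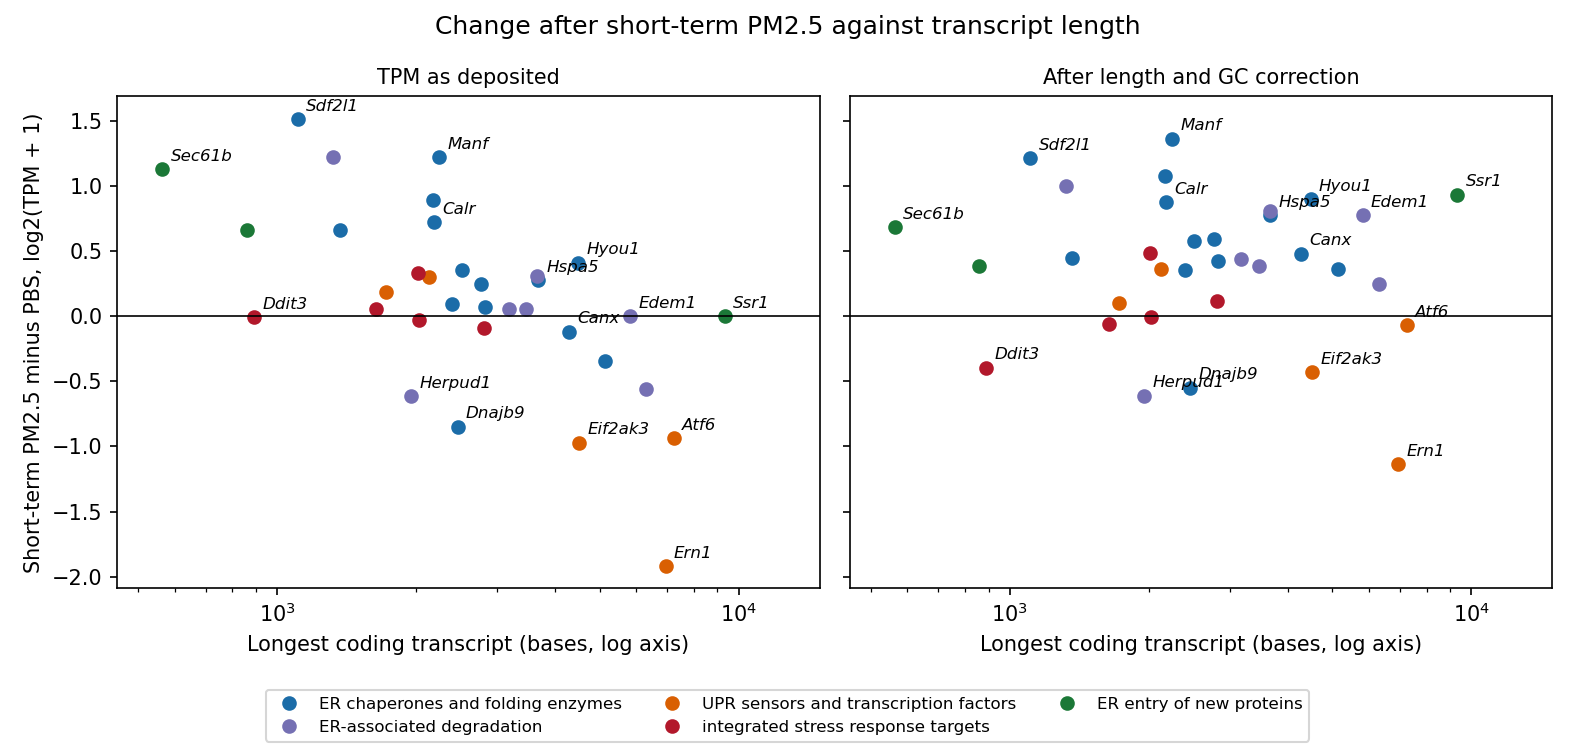
Log2 fold change after short-term PM2.5 against the length of the longest coding transcript (bases, log axis) for the 34 tested genes, coloured by role, on the deposited TPM (left) and after each library's length and GC trend was subtracted (right). The Spearman correlation was -0.569 on the left and -0.057 on the right, where the length trend over all genes was removed by construction. On the right the points of Ern1, Herpud1 and Dnajb9 stay below 0 and those of Hspa5, Edem1 and Ssr1 lie above it.

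Other genes of the pathway were counted in the same fit. Of all tested genes 11.7% were higher and 40.3% lower after short-term PM2.5, and 23.6% and 26.0% with the length and GC correction. Of 22 other folding and redox enzymes 7 rose and 4 fell after short-term PM2.5, and after the length and GC correction 13 were higher and 0 lower. Fkbp2, an ER prolyl isomerase, went from 186 ± 6.00 to 455 ± 131 TPM (1.25), Fkbp11, a related isomerase, was at 1.21, and P4hb, the founding protein disulfide isomerase, at 0.56. Of 26 other genes of ER entry, signal peptidase and oligosaccharyltransferase 10 rose and 1 fell (18 and 0 corrected), led by the channel subunit Sec61g (1.20), the translocon-associated subunit Ssr4 (0.84) and Dad1 (0.88), a subunit of the oligosaccharyltransferase. Of 16 other degradation genes 2 rose and 7 fell (2 and 4 corrected), a share of lower genes near that of all tested genes, 40.3% and 26.0% corrected, with Fam8a1 (-1.57), Herpud2 (-1.32) and Edem3 (-1.32) the lower genes with the smallest p. Of 28 tested ATF4 and amino acid response genes 9 rose and 4 fell (17 and 1 corrected). Mthfd2, a mitochondrial folate enzyme, was at 1.31 and Slc3a2, a subunit of amino acid transporters, at 0.48, while Vldlr was at -1.40.

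Markers of other cell types were counted in the same comparison, in which 11.7% of all tested genes were higher and 40.3% lower. Neutrophil markers rose in 7 of 10, with a summed level of 386 to 638 TPM in the PBS libraries and 1047 to 1567 TPM in the short-term libraries. Plasma cell markers, a list that shares Txndc5 with the folding enzymes, rose in 0 and fell in 2 of 10, with 290.1 to 352 and 266 to 387 TPM. Club cell markers rose in 1 and fell in 2 of 7, with 150251 to 186441 TPM in the PBS libraries and 110438 to 132769 TPM in the short-term libraries, without overlap. Scgb1a1, which did not pass, made up most of this sum. The 1 that rose, Sftpa1, is also in the list of type 2 cell markers. Of 10 markers of alveolar macrophages 1 rose and 4 fell, with 566 to 606 and 399 to 543 TPM. Alveolar type 2 cell markers rose in 2 and fell in 2 of 9, with a summed level of 45724 to 46897 TPM in the PBS libraries and 33110 to 39334 TPM in the short-term libraries. Goblet cell markers rose in 3 and fell in 0 of 9 tested, with 41.2 to 72.8 and 104 to 162 TPM. No marker of these lists was at 0 in all libraries. Their part in the changes of the ER genes was not tested, and in whole lung more cells of a type and more RNA per cell cannot be told apart.

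The long-term group was compared with PBS to see what remained different after 6 doses. Few of the genes differed: Sdf2l1 was higher, Ddit3 was lower, and 32 of 34 did not pass, against 9.51% of all tested genes higher and 1.72% lower. Sdf2l1 had long-term values of 48.4, 55.3 and 44.1 TPM, all above PBS, with a mean of 49.3 ± 5.67 TPM, 1.52-fold that of PBS. Its log2 fold change was 0.58 ± 0.13 (adjusted p = 0.0188). The call was lost after median-ratio scaling (adjusted p = 0.1003), with the replicate number as a block (0.0520) and without PBS replicate 1 (0.0765) or 2 (0.0756) or long-term replicate 1 (0.0692) or 2 (0.0955). Ddit3 stood at 31.0, 38.5 and 37.5 TPM, all below the PBS libraries (-0.53 ± 0.15, adjusted p = 0.0489). The call of Ddit3 was lost in 13 of 18 alternatives, among them the fits without any 1 PBS or long-term library (adjusted p from 0.0925 to 0.220) and without short-term replicate 3 (0.0705). After the length and GC correction Sdf2l1 was still higher (0.41, adjusted p = 0.00784), and Ddit3 (-0.73), Atf4 (-0.39) and Dnajb9 (-0.48) were lower, 1 and 3 of 34 genes against 13.0% and 12.8% of all genes. Ddit3 overlaps Mars1 and Mbd6 on the genome, and without a stated strand setting their reads may be mixed.

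The other 32 tested genes did not pass, with log2 fold changes from -0.31 for Dnajb9 to 0.68 for Derl3, which does not show that they were unchanged. Manf stood at 182, 182 and 181 TPM (0.01, 95% interval -0.24 to 0.26), Hyou1 at 43.2, 41.4 and 44.9 TPM (0.00, -0.25 to 0.26) and Creld2 at 51.6, 52.8 and 52.4 TPM (0.04, -0.20 to 0.29). Hspa5 stood at 291, 246 and 279 TPM (0.04, -0.42 to 0.49). Ern1 (0.02, -0.82 to 0.86), Atf6 (-0.07, -0.59 to 0.45) and Eif2ak3 (-0.10, -0.73 to 0.53) overlapped PBS. Pdia6 stood at 173, 154 and 156 TPM, above each PBS library, but did not pass (0.34, 0.06 to 0.62, adjusted p = 0.137, and 0.0303 and 0.0419 without short-term replicates 1 and 2 in the fit). Sec11c stood at 73.0, 64.4 and 59.2 TPM, also above PBS (0.47, 0.10 to 0.85, adjusted p = 0.113, and 0.0216 and 0.0256 in the same order). Both genes also passed as higher with quantile normalization (adjusted p = 0.0439 for Pdia6 and 0.0231 for Sec11c) and in a fit of the 2 groups alone (0.00844 and 0.00741), and Sec11c with median-ratio scaling (0.0277). Calr (0.17), Derl3 (0.68), Sec61b (0.19), Pdia3 (0.23), Pdia4 (0.17), Canx (0.10), Sel1l (0.18) and Derl1 (0.10) lay above PBS in each library without passing, and Atf4 (-0.21), Herpud1 (-0.18), Dnajb9 (-0.31) and Ppp1r15a (-0.30) lay below it without passing. In all, the groups did not overlap in 11 genes on the higher side and 5 on the lower, against 25.9% and 17.4% of all tested genes.

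Ern2, which encodes the IRE1 form of mucus-secreting epithelium, was listed at 0.14, 0.13 and 0.17 TPM with PBS, at 0.02, 0.06 and 0.07 TPM after short-term PM2.5 and at 0.84, 1.37 and 1.63 TPM after long-term PM2.5. It was above 1 TPM in 2 libraries and so outside the main test. In the fit without a filter it was higher after long-term PM2.5 than with PBS, by 0.98 ± 0.11 on the log2(TPM + 1) scale (adjusted p = 0.00113). Agr2, a disulfide isomerase needed to make mucins, also rose with long-term PM2.5, from 1.90 ± 0.69 to 23.5 ± 3.90 TPM (3.10 ± 0.40, adjusted p = 0.000872). No other gene of the 22 in its list passed in that comparison. Agr2 was called as higher after short-term PM2.5 as well, at 5.35, 13.45 and 2.79 TPM against 1.11, 2.36 and 2.22 TPM with PBS. It was also called as higher with long-term than with short-term PM2.5. Goblet cell markers rose in 9 of 9 tested after long-term PM2.5, where 9.51% of all tested genes were higher and 1.72% lower. The summed level of these markers was 41.2 to 72.8 TPM in the PBS libraries, 104 to 162 TPM in the short-term and 487 to 581 TPM in the long-term libraries. None of them was at 0 in all libraries, and their part in the rise of Ern2 and Agr2 was not tested. Alveolar macrophage markers rose in 6 of 10 after long-term PM2.5, with 566 to 606 TPM with PBS and 1028 to 1186 TPM, and 0 of 10 plasma cell markers were called (smallest adjusted p = 0.0950), with 384 to 393 TPM after long-term PM2.5 and 2 markers at an unadjusted p under 0.05. Their part in the rise of Sdf2l1 and the fall of Ddit3 was not tested.

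In the related lists few genes passed after long-term PM2.5. Of all tested genes 9.51% were higher and 1.72% lower in this comparison, and 13.0% and 12.8% with the length and GC correction. None of 26 genes of ER entry, signal peptidase and oligosaccharyltransferase passed in limma (smallest adjusted p = 0.294), with 0 genes at an unadjusted p under 0.05, and 1 of 16 other degradation genes rose, Edem2 (0.39). After the length and GC correction 0 of these 16 were higher and 2 lower, so the call of Edem2 was lost. Of 28 ATF4 and amino acid response genes 4 rose and 0 fell (5 and 1 corrected), beside 9.51% of all tested genes higher. In that list 11 genes had an unadjusted p under 0.05. In it 12 genes did not overlap PBS on the higher side and 2 on the lower, against 25.9% and 17.4% of all tested genes. The 4 genes that passed as higher were Mthfd2 (0.91), the cystine transporter gene Slc7a11 (1.06), Phgdh (0.71), the first enzyme of serine synthesis, and the stress cytokine gene Gdf15. Slc7a11 went from 0.443 ± 0.07 TPM with PBS to 2.07 ± 0.70 TPM, and it was at 2.09 ± 0.83 TPM after short-term PM2.5.

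Long-term against short-term PM2.5 compared the exposures directly, on the same short-term and long-term libraries as above. With long-term PM2.5 4 of 34 genes were higher and 9 were lower, against 43.4% of all tested genes higher and 7.08% lower. The groups did not overlap in 5 genes on the higher side and 11 on the lower side, against 50.2% and 9.94% of all tested genes. Manf was lower by 1.22 on the log2 scale in the long-term libraries (SE 0.11, adjusted p = 0.000101), a mean of 182 ± 0.76 against 426 ± 60.7 TPM, and Sdf2l1 by 0.94 (SE 0.13, adjusted p = 0.000744). Calr, Creld2, Pdia6, Hyou1, Sec61b, Atf4 and Ddit3 were also lower, with log2 fold changes from -0.94 for Sec61b to -0.39 for Atf4. Atf4 stood at 277, 319 and 283 TPM after short-term and at 218, 219 and 231 TPM after long-term PM2.5, with PBS between them at 274, 253 and 244 TPM (-0.39 ± 0.10, adjusted p = 0.0103). Hyou1 lost its call without long-term replicate 2 (adjusted p = 0.0608) and Ddit3 without long-term replicate 1 (0.0737).

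The 4 genes that were higher with long-term PM2.5 were Ern1 (1.94 ± 0.38, adjusted p = 0.00329), Atf6 (0.87 ± 0.24, 0.0132), Eif2ak3 (0.87 ± 0.29, 0.0284) and Sel1l (0.74 ± 0.24, 0.0277). They have transcripts of 4513 to 7246 bases. Eif2ak3 and Sel1l lost their calls without long-term replicate 1 (adjusted p = 0.0777 and 0.0903), 2 (0.0678 and 0.0559) or 3 (0.0653 and 0.0599), and Eif2ak3 also without short-term replicate 3 (0.0640). After the length and GC correction only Ern1 was higher (1.17, adjusted p = 0.00335), and 24 genes were lower, against 19.3% and 22.3% of all genes. The 24 held 13 of the 14 chaperones and folding enzymes, all but Dnajb9, with Hspa5 at -0.84 (adjusted p = 8.97e-05) and Manf at -1.53.

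The summed level of each role showed the same order of groups for folding and entry. The 14 chaperones and folding enzymes summed to 2098, 2100 and 2079 TPM with PBS, 2823, 3545 and 2928 TPM after short-term and 2387, 2222 and 2305 TPM after long-term PM2.5, and the 3 groups did not overlap. Calr made up the largest part in each group. The 3 genes of ER entry summed to 321, 287 and 304 TPM, 714, 539 and 559 TPM, and 359, 348 and 349.8 TPM, in the same order, again without overlap. The degradation genes overlapped, with 299.9 to 312 TPM, 205 to 321 TPM and 294 to 311 TPM. The 5 stress response targets lay at 107 to 125 TPM after long-term PM2.5, below the 139.7 to 153 TPM with PBS and the 132 to 166 TPM after short-term PM2.5. Summed levels have no test here, since the genes were listed with results of these data known.

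**Figure D4:**
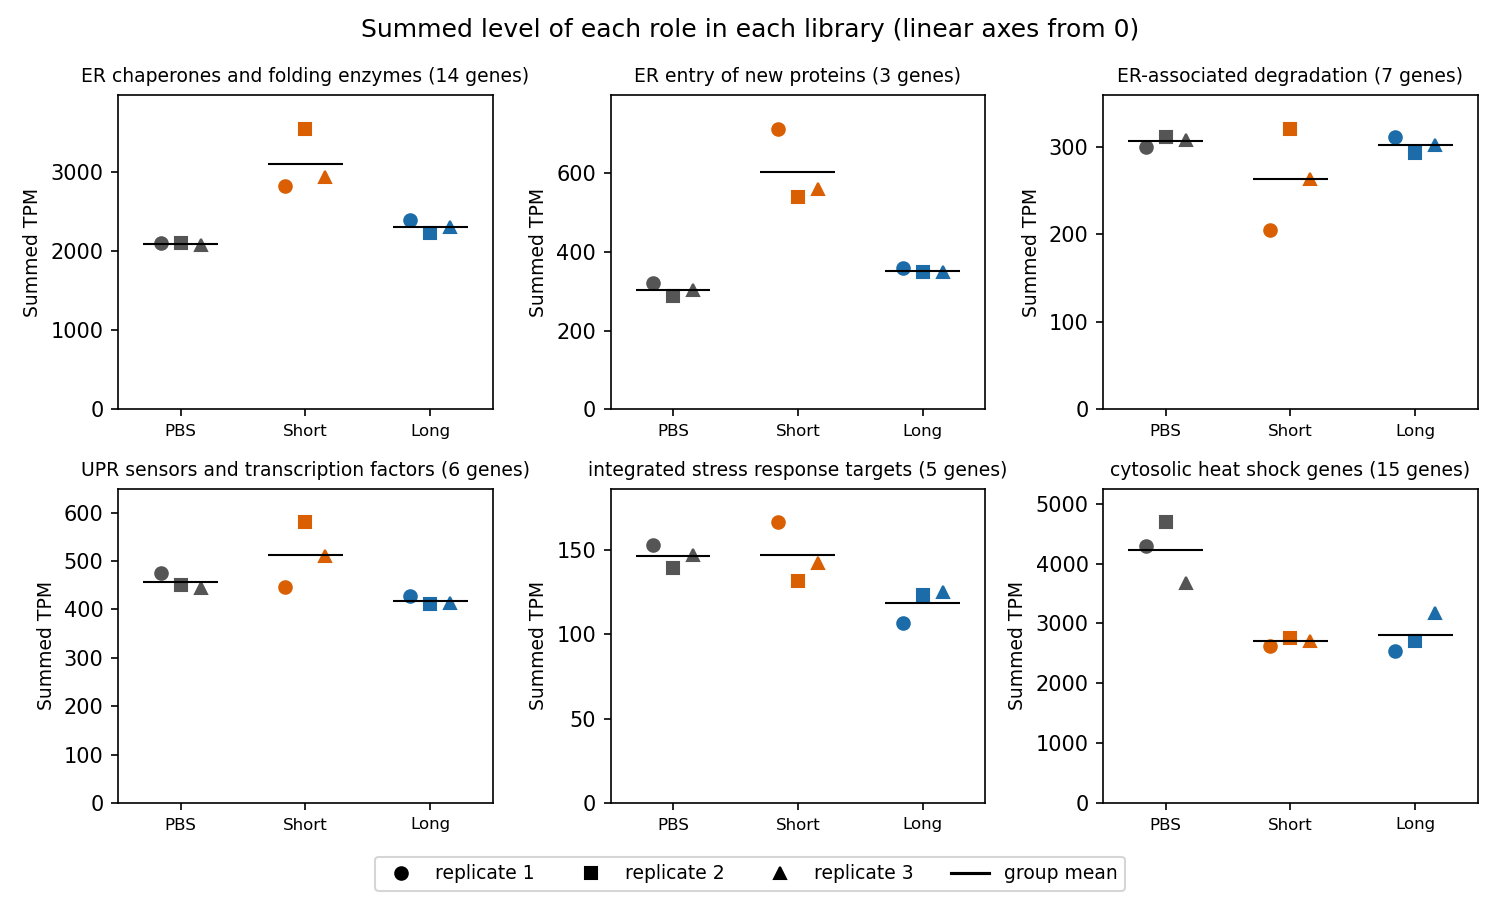
Summed TPM of the genes of each role in each library, on linear axes from 0, with cytosolic heat shock genes for comparison; symbols are replicate numbers, lines group means (n = 3), and Short and Long are short-term and long-term PM2.5. The 14 chaperones and folding enzymes lay at 2079 to 2100 TPM with PBS, 2823 to 3545 TPM after short-term and 2222 to 2387 TPM after long-term PM2.5.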

How the data were processed

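Expression of 18875 genes was read from the table of TPM values that the authors deposited, 1 column per library. HISAT2, Bowtie2, RSEM and DESeq2 are named, without version or role, in the submitters' processing notes, and GRCm38.p6 for 8 of 9 samples. Whole lung mRNA was selected with oligo(dT) and sequenced on a DNBSEQ instrument, per the labels. TPM keeps no depth, so read depth and counting error are unknown here.

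Values were analysed as log2(TPM + 1), computed here from the deposited TPM. Genes that reached 1 TPM in 3 or more libraries (13991, with 4884 left out) were fitted with limma 3.58.1 in R 4.3.3, with 3 groups, 9 libraries, 6 residual degrees of freedom, an intensity trend and two-sided tests. Benjamini-Hochberg adjustment ran over all 13991 genes, and the threshold was an adjusted p of 0.05. Fold changes on this scale understate the change of low genes. An exact test of 3 against 3 samples cannot go below p = 0.1.

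The members and lists were chosen with earlier results of these data known. All members were described, and of each related list up to 3 genes per comparison with the smallest p among those that passed could be named. Others named are part of a count of 5 or fewer or are values that a list turns on, chosen after their values were seen. The length and GC correction subtracted from each library a natural spline (5 degrees of freedom each) of the longest protein-coding transcript of GENCODE M21, known for 13770 tested genes. Other alternatives were the filter, a pseudocount of 0.1, median-ratio and quantile scaling, the compared groups alone, a replicate block, no intensity trend and leaving out each library. The fit was tested on simulated data. The sources used here do not give the strand of counting, and Hspa5, Pdia3, Pdia6, Syvn1, Derl2, Ddit3 and Ppp1r15a overlap another gene of the table. Promoters were searched with Python 3.11.15.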

Additional observations from a re-analysis of the deposited data

How the results depend on the processing

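Of the single-gene values, 1683 kept their side of the threshold, including values that passed in neither fit whatever their sign, 89 passed only in the alternative, 50 passed only in the reported fit and 11 changed sign and passed in 1 of the fits or both; the cause was not tested. Long-term against PBS, 1 gene was higher and 1 lower. Higher genes numbered 2 without a filter, 3 with quantile normalization or the 2 groups alone and 0 with the replicate block. Lower genes numbered 0 without a filter, with a mean of at least 5 TPM, log2(TPM + 0.1), median-ratio scaling, the block or no intensity trend, 2 with the 2 groups alone, 3 with the length and GC correction and 7 with that correction and short-term replicate 1 left out, an alternative chosen after seeing the data. Over all genes 1571 were called, and 920 with the mean filter, 2583 with quantile normalization, 3881 with the 2 groups alone, 3550 corrected and 5046 corrected without that library. Short-term against PBS, 9 higher genes became 21 with median-ratio scaling, 15 with quantile normalization and 24 with the correction with or without short-term replicate 1, and 5 lower became 3 with median-ratio scaling. Over all genes 3051 were higher and 3370 lower with the correction and without that library. Long-term against short-term, 4 higher genes became 2 with median-ratio scaling, quantile normalization or the 2 groups alone and 1 with the correction with or without that library. The 9 lower genes became 21, 16, 24 and 22 with median-ratio scaling, quantile normalization, the correction, and the correction without that library. In the last of these fits 2397 genes were higher and 2880 lower over all genes.

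Values that changed sign after the correction and passed in either fit were Canx 0.48, Dnajc3 0.37 and Sel1l 0.25 in short-term against PBS. Between the exposed groups they were Hsp90b1 -0.44, Pdia4 -0.35, Canx -0.46, Dnajc3 -0.42, Sel1l -0.073, Edem1 -0.56 and Derl1 -0.46, and with median-ratio scaling Derl1 -0.34. Values near 0 that passed in neither fit also changed sign, such as Hspa5 (0.04 to -0.07), Creld2 (0.04 to -0.15) and Sec61b (0.19 to -0.03) after the correction in long-term against PBS. Over all genes the 1632 higher and 5636 lower of short-term against PBS became 3421 and 3885 with median-ratio scaling, 3477 and 3745 with quantile normalization and 3252 and 3581 corrected. The 6070 higher and 991 lower of long-term against short-term became 3762 and 2756, 2977 and 2996, and 2658 and 3075. The 1330 higher and 241 lower of long-term against PBS became 1467 and 512, 1426 and 1157, and 1793 and 1757, and 2500 and 1381 with the 2 groups alone.

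Leaving out 1 library gave 0 to 3 higher and 0 to 1 lower genes (all genes 853 to 3157) for long-term against PBS. It gave 9 to 15 and 3 to 8 (5123 to 8925) for short-term against PBS, with 15 higher without short-term replicate 1, and 8 lower without replicate 2 and 3 lower without PBS replicate 1. For long-term against short-term it gave 2 to 10 and 8 to 12 (4621 to 9168), with 10 higher without short-term replicate 2 and 2 without any 1 long-term library. Same-numbered libraries correlated in their deviations from -0.29 to 0.26 and other pairs from -0.27 to 0.34. Deviations from means of 3 libraries depend on each other, so these ranges cannot decide whether same-numbered samples are related. The labels do not say what the number marks. The replicate block left 9 higher and 5 lower genes in short-term against PBS, 4 and 9 between the exposed groups and 0 and 0 in long-term against PBS, where it called 993 genes higher and 132 lower over all. Unknown depth limits Ern2, Trib3, Chac1 and Derl3, the lowest in TPM.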

Other observations

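Genes that carry folded proteins onward moved in both directions after short-term PM2.5. Of 21 genes of ER to Golgi transport 4 rose and 3 fell, and 10 were higher and 4 lower after the length and GC correction. For this list and the next 2, the shares of all tested genes were 11.7% higher and 40.3% lower, and 23.6% and 26.0% corrected. Kdelr3, a receptor that returns ER proteins, went from 10.7 ± 0.27 to 22.1 ± 4.75 TPM (± SD, n = 3; log2 fold change 0.96), Cope, a COPI coat subunit, was at 0.70, and Sec24a, a COPII coat subunit, was at -1.10. Of 14 genes of ATF6 processing and the CREB3 family 2 rose and 4 fell (3 and 4 corrected), among them the apoptosis gene Bax (0.75), Creb3l2 (-1.39) and Nfya (-0.92), a subunit of the factor that binds the CCAAT part of the ER stress element. Of 11 genes of eIF2 control 0 rose and 1 fell, the kinase gene Eif2ak4 (-0.99), and 4 were higher and 1 lower after the correction. After long-term PM2.5 none of the first 2 lists passed in limma (smallest adjusted p 0.246 and 0.0506, with 0 and 1 genes at an unadjusted p under 0.05). Eif2b2, 1 of the 11 genes of the third list, rose (0.44), beside 9.51% of all tested genes higher.

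Several cytosolic heat shock genes, a folding system outside the ER, fell in each exposed group, and both comparisons share the PBS libraries. Of 15 genes 10 fell and 0 rose after short-term PM2.5, and 5 fell and 0 rose after long-term PM2.5. Of all tested genes 40.3% were lower and 11.7% higher after short-term PM2.5, and 1.72% and 9.51% after long-term PM2.5. Hspa1a, an inducible Hsp70, had means of 284 ± 66.2 TPM with PBS, 15.7 ± 2.89 after short-term and 44.5 ± 20.7 after long-term PM2.5. Its near-identical copy Hspa1b had 299.4 ± 78.8, 14.0 ± 3.05 and 49.7 ± 25.5 TPM, and reads may be split between the copies. After the length and GC correction 7 of the 15 were lower and 2 higher with short-term PM2.5, against 26.0% and 23.6% of all genes. With long-term PM2.5 11 were lower and 1 higher, against 12.8% and 13.0%.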
